A study of Mus musculus with 6 samples.

Results

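The genes described here are 35 mouse genes that fold, inspect and dispose of proteins in the endoplasmic reticulum (ER), or that sense and answer stress there. They were taken by name from the table of genes, which lists 16415, and all 35 were present and passed the filter on low values used for testing. The libraries are poly-A-selected mRNA from trigeminal ganglion, the ganglion that holds the cell bodies of the sensory neurons of the face, from wild type (WT) mice. Treatment was labelled NC-up in 3 libraries and SETDB2-up in 3. SETDB2 belongs to a family of histone H3 lysine methyltransferases. The labels spell out neither name, do not say how or for how long either treatment was given, and give no age, sex or strain. They also do not say that the libraries of a group came from separate animals, so each p-value reflects spread among the libraries at hand, which may be technical. Values are read counts that the submitters had scaled, library by library, called normalised reads below.

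Proteins that enter the secretory pathway pass through the ER translocon, gain disulfide bonds from protein disulfide isomerases and their oxidases, and, if glycosylated, are held by the lectin chaperones calnexin and calreticulin until folded. Chains that fail to fold are pulled back to the cytosol and destroyed by ER-associated degradation (ERAD). When unfolded chains accumulate, the sensors IRE1, ATF6 and PERK start the unfolded protein response, in which spliced XBP1 and cleaved ATF6 raise chaperone and ERAD genes, and ATF4 and CHOP raise genes of amino acid supply, redox balance and cell death. Sensory neurons make large amounts of membrane and secreted protein, among them ion channels, receptors and neuropeptides.

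Some of these genes carry in their promoters the letters through which the response is known to act. The promoters with an ER stress response element are shown because they divide the members independently of their mRNA values. RefSeq promoters on build GRCm38.p6, from 250 bases before to 50 after the start of each gene, were available for 31 of the 35 members; those of Atf6, Derl1, Hyou1 and Manf were not. The ER stress response element was searched on both strands as CCAAT, any 9 bases, then CCACG. It lay in 7 of the 31 member promoters (22.6%) and in 37 of all 27025 promoters (0.137%). Among the 12895 genes of the table with a promoter it lay in 21 (0.163%). The element and its flanks are given 5′ to 3′ along the gene, with the match in capitals, and a match that starts with CGTGG and ends with ATTGG is read on the other strand.
Pdia6, chr12:17266471-17266529, plus strand, match 98 to 80 bases before the start: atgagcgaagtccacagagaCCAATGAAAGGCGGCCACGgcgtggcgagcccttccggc
Ero1b, chr13:12565662-12565720, plus strand, match 201 to 183 bases before the start: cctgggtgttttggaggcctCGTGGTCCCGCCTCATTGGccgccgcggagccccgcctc
Calr, chr8:84847055-84847113, minus strand, match 162 to 144 bases before the start: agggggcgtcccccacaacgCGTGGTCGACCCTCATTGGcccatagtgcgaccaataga
Canx, chr11:50325780-50325838, minus strand, match 145 to 127 bases before the start: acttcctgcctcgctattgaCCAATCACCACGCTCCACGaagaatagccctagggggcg
Creld2, chr15:88819500-88819558, plus strand, match 126 to 108 bases before the start: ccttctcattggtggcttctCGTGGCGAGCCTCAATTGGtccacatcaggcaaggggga
Derl3, chr10:75893222-75893280, plus strand, match 156 to 138 bases before the start: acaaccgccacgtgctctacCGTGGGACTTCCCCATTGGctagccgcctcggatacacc
Syvn1, chr19:6046512-6046570, plus strand, match 44 to 26 bases before the start: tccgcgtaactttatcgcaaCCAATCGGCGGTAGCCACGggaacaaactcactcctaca

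Herpud1 differed from these in holding the shorter ER stress response element II, searched as ATTGG, any base, then CCACG, which matched in 1 of 31 member promoters (3.23%) and 12 of all promoters (0.0444%). The same promoter held the core of the amino acid response element through which ATF4 acts, searched as TGATGNAA. That core lay in 4 of 31 member promoters (12.9%), those of Asns, Chac1, Herpud1 and Trib3, and in 1219 of all promoters (4.51%). The unfolded protein response element core, TGACGTG, matched in 0 of the 31 and in 601 of all promoters (2.22%). Among the 12895 genes of the table with a promoter, the shares were 0.0698% for element II, 2.88% for the amino acid response core and 2.97% for TGACGTG. The stretch of the Herpud1 promoter with both matches in capitals, the amino acid response core on the other strand and element II on the gene's own, is shown because it holds the letters of both branches within a short distance.
Herpud1, chr8:94386297-94386407, plus strand, matches 112 to 105 and 52 to 42 bases before the start: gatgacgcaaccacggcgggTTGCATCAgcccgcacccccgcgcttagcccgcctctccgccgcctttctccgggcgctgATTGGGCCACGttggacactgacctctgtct

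The libraries held 19334997 to 23501386 reads, and the members together took 0.271% to 0.306% of them. Setdb2, the gene named in the treatment label, had 69.9, 58.4 and 71.5 normalised reads in the NC-up libraries and 113, 97.6 and 104 in the SETDB2-up libraries. The groups did not overlap, and the log2 difference (SETDB2-up minus NC-up, of normalised reads plus 1, as throughout) was 0.65 ± 0.19 (SE; adjusted p = 0.0253, limma); after a correction for GC content it was 0.48 (adjusted p = 0.160). Setdb2 did not pass without NC-up library 2 (adjusted p = 0.0802) or without SETDB2-up library 1 (0.141), 2 (0.0636) or 3 (0.0515). Markers of liver cells were high in 2 SETDB2-up libraries. Their summed level was 47.9 to 63.5 normalised reads in the NC-up libraries and 3011, 6995 and 94.6 in SETDB2-up libraries 1, 2 and 3, and 7 of the 14 listed genes were at 0 in every NC-up library. Pituitary hormone genes were highest in the libraries numbered 3, with growth hormone (Gh) at 1211, 855 and 2401 normalised reads in the NC-up and 796, 466 and 2729.7 in the SETDB2-up libraries. Sensory neuron markers summed to 356692 to 372631 in the NC-up and 370526 to 380455 in the SETDB2-up libraries, and of their 13 genes 3 rose and 1 fell. Schwann cell markers summed to 296502 to 310405 in the NC-up and 263680 to 298384 in the SETDB2-up libraries, and 4 of 7 fell. Keratinocyte markers summed to 188 to 572 against 119 to 142 (5 of 6 fell), skeletal muscle markers to 137 to 313 against 78.8 to 155 (3 of 7 fell), and endothelial markers to 3075 to 3204 against 2908 to 2993 (1 of 7 fell). The part of these cell types in the results was not tested.

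Among the 35 members, 8 rose and 1 fell in the SETDB2-up libraries at an adjusted p under 0.05 in limma, over all 16387 genes tested. The 8 were the disulfide isomerases Pdia6, Pdia4 and Pdia3, the oxidase Ero1b, the lectin chaperones Calr and Canx, the folding sensor Uggt1, and the stress sensor Atf6, with increases of 1.14 to 1.35-fold. The one that fell was Sec61b, a subunit of the translocon. Of all genes tested, 7.71% rose and 8.71% fell. In these bulk samples a change in the number of cells of a type and a change in RNA per cell cannot be told apart. Pdia3, Pdia6, Derl2, Syvn1, Ssr1 and Ddit3 overlap a listed gene on the opposite strand, none of them 4 times as abundant, and no source used here gives the strand setting of the counting. The plot of fold changes by role shows 4 risen isomerases and oxidases, 3 risen genes of the lectin chaperone group and 1 risen sensor.

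**Figure D1:**
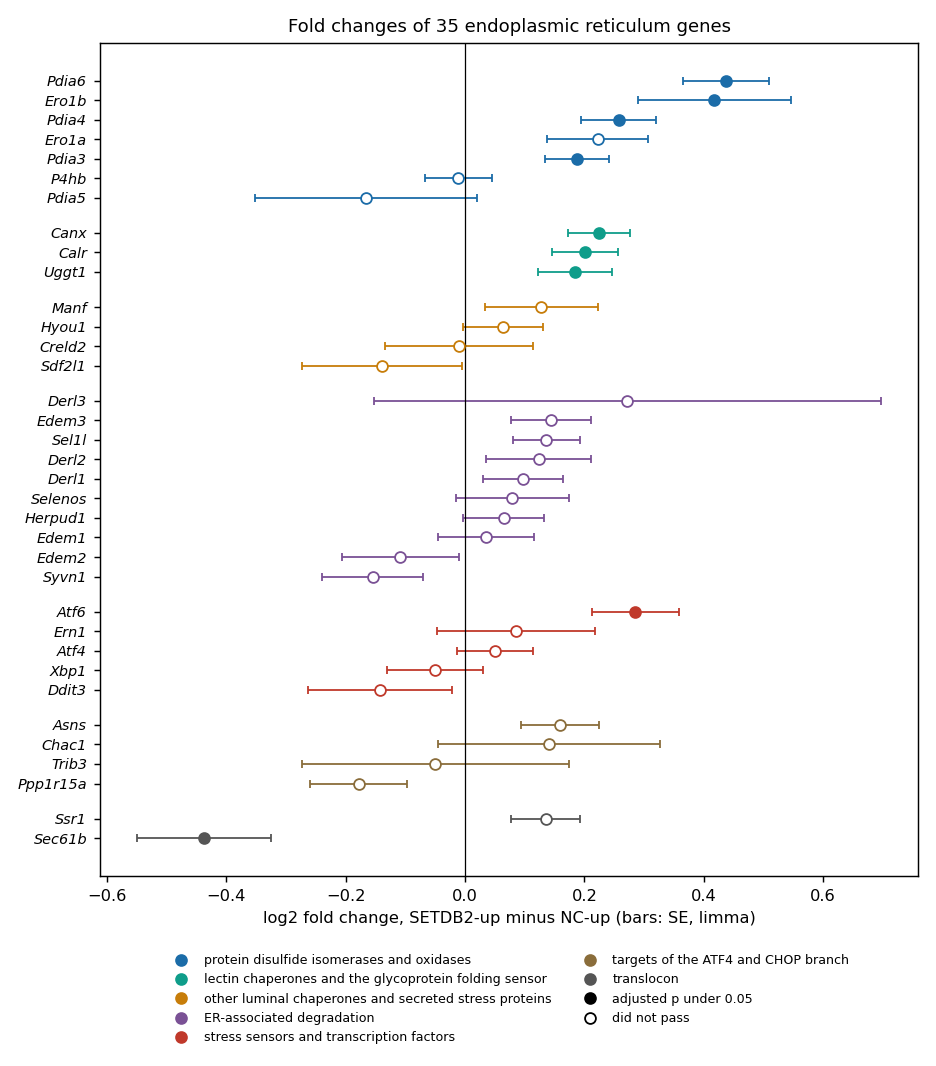
Log2 fold change (SETDB2-up minus NC-up, horizontal axis) of the 35 members in rows, coloured by role, with bars of 1 SE from limma; filled points passed an adjusted p of 0.05 and open points did not. The 8 filled points to the right are isomerases or oxidases, lectin chaperones with Uggt1, and Atf6, and Sec61b is the filled point to the left.

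Most members did not pass, and differences in both directions were small. The log2 difference was above 0 in 24 members and below 0 in 11, a share above 0 of 68.6% against 50.03% of all genes, and the median was 0.10 against 0.0004 over all genes. All 3 SETDB2-up values lay above all 3 NC-up values in 14 members and below them in 2; 16.8% of all genes lay wholly above and 16.4% wholly below. The 26 members that did not pass had adjusted p-values from 0.0775 (Ero1a) to 0.968 (Creld2).

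Protein disulfide isomerases and the oxidases that recharge them gave 4 risen genes of 7, where 7.71% of all genes rose. Pdia6, an isomerase that is also known to limit the activity of the sensor IRE1, had 1818, 1919 and 2146 normalised reads in the NC-up libraries and 2617, 2476 and 2873 in the SETDB2-up libraries. Every SETDB2-up value exceeded every NC-up value, and library 3 was the highest in each group. Its log2 difference of 0.44 ± 0.07 (SE, n = 3 per group; adjusted p = 0.0005 in limma) was the largest increase among the members. Pdia6 also passed in all 17 alternative settings, the only risen member to do so.

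Pdia4, an isomerase also known as ERp72, had 1480.0, 1427 and 1413 normalised reads against 1696, 1706 and 1763. The values within each group lay close together, and the log2 difference was 0.26 ± 0.06 (adjusted p = 0.0091). Pdia3, the isomerase that calnexin and calreticulin recruit to glycoproteins, had 4604, 4396 and 4471 against 5233, 5012 and 5091. Its groups did not overlap, and the log2 difference was 0.19 ± 0.05 (adjusted p = 0.0231). Ero1b, the oxidase most known from secretory cells such as those of the pancreas, had 216, 218 and 291 against 300.2, 320.4 and 341. NC-up library 3, at 291, came near the lowest SETDB2-up value, and the log2 difference was 0.42 ± 0.13 (adjusted p = 0.0313).

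The remaining isomerases and oxidases did not pass. P4hb, the abundant founding member of the family, had 3439.8, 3374 and 3328 normalised reads in the NC-up and 3248, 3322 and 3497 in the SETDB2-up libraries. The groups overlapped, and the fold of 0.992 had a 95% interval of 0.914 to 1.08 (adjusted p = 0.917). Ero1a, the more widely expressed oxidase, had 572, 599.5 and 601 against 746, 676 and 649, without overlap (log2 difference 0.22, adjusted p = 0.0775). Pdia5 was low, with means of 134 ± 19.1 and 121 ± 26.9 normalised reads (SD, n = 3 each; adjusted p = 0.586).

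The lectin chaperone cycle gave 3 risen genes of 3, where 7.71% of all genes rose. Canx encodes calnexin, which holds glycoproteins at the ER membrane, and had 7859.6, 8011 and 8053 normalised reads against 9481, 9143 and 9321. The groups were far apart relative to their spread (log2 difference 0.22 ± 0.05, adjusted p = 0.0062). Calr encodes calreticulin, its soluble partner, and had 6187, 6587 and 6776 against 7348, 7405 and 7701. NC-up library 1 was the lowest, and the log2 difference was 0.20 ± 0.06 (adjusted p = 0.0177).

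Uggt1, which re-glucosylates misfolded glycoproteins so that calnexin and calreticulin bind them again, had 2037, 2148 and 2175 normalised reads against 2302, 2546 and 2381. Its groups did not overlap, but the call was at the edge of the threshold (log2 difference 0.18 ± 0.06, adjusted p = 0.0499). It passed in 5 of the 17 alternative settings and did not pass in edgeR (adjusted p = 0.0526).

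Other luminal chaperones and secreted stress proteins gave 0 called genes of 4. Of all genes 7.71% rose and 8.71% fell, and 4 genes are too few to set 0 apart from these shares. Hyou1, a nucleotide exchange factor for BiP, had 2449, 2671 and 2878 normalised reads against 2659, 2749 and 2938, and a fold of 1.04 with a 95% interval of 0.948 to 1.15 (adjusted p = 0.561). Manf, a secreted stress protein, had means of 919 ± 135 and 999.6 ± 89.7 (SD; adjusted p = 0.390). Creld2, an ER-resident isomerase-like protein, stood at 328 ± 36.2 and 327 ± 48.4 (adjusted p = 0.968). Sdf2l1, a cofactor in the BiP cycle, stood at 327 ± 43.2 and 298 ± 56.5 (adjusted p = 0.517). The groups overlapped in each of the 4.

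ERAD gave 0 called genes of 10, with adjusted p-values from 0.104 to 0.809. Of all genes 7.71% rose and 8.71% fell, and 10 genes are too few to set 0 apart from these shares. Sel1l, the adaptor of the retrotranslocation complex, came nearest, with 2802, 2811 and 2809 normalised reads against 3025, 3093 and 3138. The groups did not overlap, and the log2 difference was 0.14 ± 0.06 (adjusted p = 0.104). Its partner, the ubiquitin ligase Syvn1, had 1281, 1507 and 1296 against 1069.7, 1301 and 1302, with overlap (log2 difference -0.16, adjusted p = 0.230). Among the mannosidase-like EDEM proteins, which mark chains for disposal, Edem3 lay wholly above the NC-up values (means 1386 ± 75.0 and 1529.5 ± 39.0), whereas Edem1 and Edem2 overlapped (log2 differences 0.04 and -0.11).

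Of the derlins, which form the channel, Derl1 and Derl2 had log2 differences of 0.10 and 0.12. Derl3 was the lowest of the members, with 11.7, 12.5 and 26.8 normalised reads against 18.05, 19.3 and 20.5, so that its fold of 1.21 had a 95% interval of 0.652 to 2.24. Herpud1, a ubiquitin-like adaptor and a usual stress reporter, had means of 1197 ± 45.3 and 1252 ± 31.6 and a fold of 1.05 (interval 0.948 to 1.15, adjusted p = 0.559). Its groups all but touched, with the highest NC-up value at 1228.17 and the lowest SETDB2-up value at 1228.33. Selenos, a selenoprotein of the same complex, had means of 528 ± 57.0 and 555 ± 22.6 (adjusted p = 0.616).

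Of the 5 sensors and transcription factors, Atf6 rose and the others did not pass. Atf6 encodes the membrane-bound factor that is cleaved when the ER is stressed, a step that mRNA does not show. It had 1130.4, 1159 and 1023 normalised reads against 1412, 1348 and 1276, with library 3 the lowest in each group, and a log2 difference of 0.29 ± 0.07 (adjusted p = 0.0114). Ern1, which encodes IRE1, was low, at means of 190.0 ± 12.7 and 202 ± 17.01 (adjusted p = 0.709). Xbp1, whose mRNA IRE1 splices, had 1326, 1465 and 1567 against 1434, 1250.0 and 1529, a fold of 0.966 (95% interval 0.859 to 1.09, adjusted p = 0.719). Gene totals do not separate its spliced and unspliced forms.

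Atf4, which is regulated mainly through translation, had means of 2291 ± 34.8 and 2376 ± 155 normalised reads (adjusted p = 0.633). Ddit3, which encodes the pro-apoptotic factor CHOP, had 479.9, 497 and 514 against 447, 364 and 559. The SETDB2-up libraries spanned the NC-up values on either side, and the fold of 0.906 had a 95% interval of 0.761 to 1.08 (adjusted p = 0.453).

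Targets of ATF4 and CHOP gave 0 called genes of 4, too few to set apart from the 7.71% of all genes that rose and 8.71% that fell. Asns, the asparagine synthetase gene, had 2696, 2659 and 2948 normalised reads against 3014, 2907 and 3355 (log2 difference 0.16, adjusted p = 0.107). Ppp1r15a, which encodes the phosphatase subunit that restarts translation after stress, lay wholly below in the SETDB2-up libraries, with 692, 757 and 766 against 629, 671 and 655 (log2 difference -0.18, adjusted p = 0.141). Chac1, a glutathione-degrading enzyme, and Trib3, a pseudokinase that restrains ATF4, were low. Chac1 had means of 99.0 ± 8.95 and 110.4 ± 22.7 (adjusted p = 0.654), and Trib3 of 64.9 ± 7.01 and 63.1 ± 11.0 (adjusted p = 0.906).

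At the translocon, Sec61b fell. It encodes the small beta subunit of the Sec61 channel and had 398, 355 and 332 normalised reads in the NC-up libraries and 285, 264 and 249.9 in the SETDB2-up libraries. The groups did not overlap, library 1 was the highest and library 3 the lowest in each, and the log2 difference was -0.44 ± 0.11 (fold 0.738, adjusted p = 0.0118). Ssr1, a subunit of the translocon-associated protein complex, went the other way without passing, with 2973, 3203 and 3150.0 against 3489, 3433 and 3317 (log2 difference 0.14, adjusted p = 0.117).

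**Figure D2:**
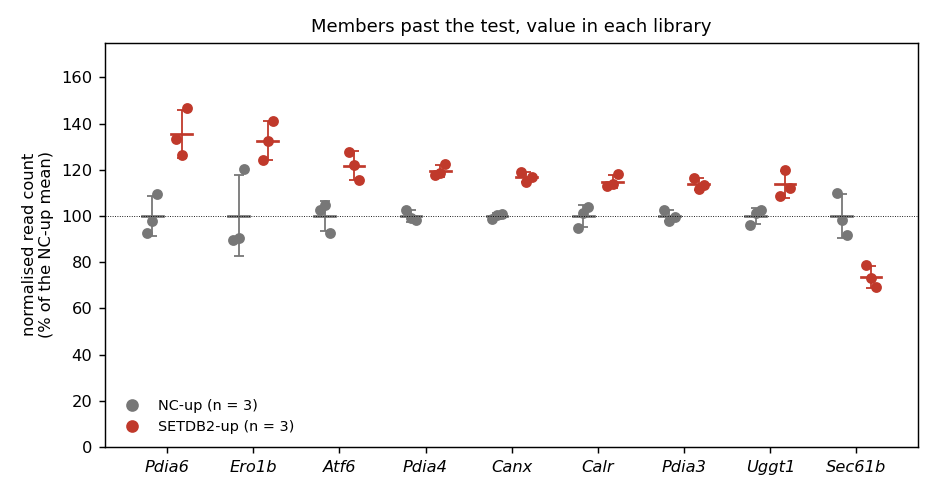
Normalised reads of the 9 members that passed, as a percentage of the NC-up mean (vertical axis, from 0), with 3 NC-up libraries in grey and 3 SETDB2-up libraries in red; points are libraries, lines the means and bars the SD. The groups do not overlap in any of the 9 genes, and the NC-up point of Ero1b at library 3 lies nearest to the other group.

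Per kilobase of exon, the lectin chaperones calreticulin and calnexin were the most abundant members, while Uggt1 stood at 165 ± 5.68. In the NC-up libraries Calr had 2263 ± 104 normalised reads per kilobase (SD, n = 3), Canx 1699 ± 21.7, Pdia3 1431 ± 33.6 and P4hb 1182 ± 19.7, and these neighbours lay apart by more than their SDs. Asns at 1012 ± 57.5 and Atf4 at 972 ± 14.8 did not differ beyond their spread. The low end was Trib3 at 30.6 ± 3.30, Ern1 at 23.2 ± 1.55 and Derl3 at 8.52 ± 4.28. The risen genes came from the whole range, from Calr down to Ero1b at 36.3 ± 6.36.

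Calls among the members differed in how far they rested on single libraries. Pdia6, Pdia4, Canx and Sec61b passed whichever single library was left out. Calr did not pass without NC-up library 1 (adjusted p = 0.0929) or NC-up library 2 (0.0585). Atf6 did not pass without NC-up library 3 (0.0619) or SETDB2-up library 1 (0.0847). Pdia3 did not pass without NC-up library 2 (0.09999), NC-up library 3 (0.0680), SETDB2-up library 1 (0.101) or SETDB2-up library 2 (0.0506). Ero1b passed only without NC-up library 3 (0.0094), with adjusted p-values of 0.0737 to 0.117 without any of the others, and Uggt1 passed only without SETDB2-up library 3 (0.0407), with values of 0.0744 to 0.225 otherwise. The number of risen members was 5 without NC-up library 1, 4 without NC-up library 2, 5 without NC-up library 3, 4 without SETDB2-up library 1, 5 without SETDB2-up library 2 and 8 without SETDB2-up library 3. The signs of all 9 log2 differences stayed the same throughout.

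Liver markers were high in SETDB2-up libraries 1 and 2, and hepatocytes are rich in ER proteins. Albumin (Alb) was at 0 in every NC-up library and at 1673, 3769 and 11.6 normalised reads in the SETDB2-up libraries. Without SETDB2-up libraries 1 and 2 a single SETDB2-up library remained, so only log2 differences are given, with those of all 6 libraries in brackets. They were 0.55 (0.44) for Pdia6, 0.29 (0.26) for Pdia4, 0.18 (0.19) for Pdia3 and 0.51 (0.42) for Ero1b. Calr had 0.24 (0.20), Canx 0.23 (0.22), Uggt1 0.17 (0.18), Atf6 0.21 (0.29) and Sec61b -0.53 (-0.44). A comparison with 1 library in a group does not test liver RNA, and the part of liver RNA in the results was not tested. Plasma cell markers, another source of ER-rich RNA, summed to 477 to 529 normalised reads in the NC-up and 410 to 453 in the SETDB2-up libraries, from 3 of 8 listed genes in the table.

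Libraries numbered 3 were the highest of their group for many members. NC-up library 3 was highest in 21 of 35 (60.0%; 34.7% of all genes) and SETDB2-up library 3 in 24 of 35 (68.6%; 37.8% of all genes). In 15 members (42.9%; 15.2% of all genes) it was the highest in both groups: Pdia6, Ero1b, Calr, Hyou1, Sdf2l1, Manf, Derl1, Derl3, Herpud1, Selenos, Xbp1, Atf4, Ddit3, Asns and Chac1. Among ERAD genes SETDB2-up library 3 was highest in 9 of 10. These are the libraries with most pituitary hormone RNA, and the summed level of the pituitary genes was 1002 to 2869 in the NC-up and 561 to 3242 in the SETDB2-up libraries, from 4 of 9 listed genes. The part of pituitary RNA in this pattern was not tested. Without both libraries numbered 3, an alternative chosen after the data were seen, 8 members rose and 1 fell, the same counts as with all 6 libraries. Of all genes 1432 rose and 1599 fell in that setting, against 1263 and 1427 with all 6 libraries.

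**Figure D3:**
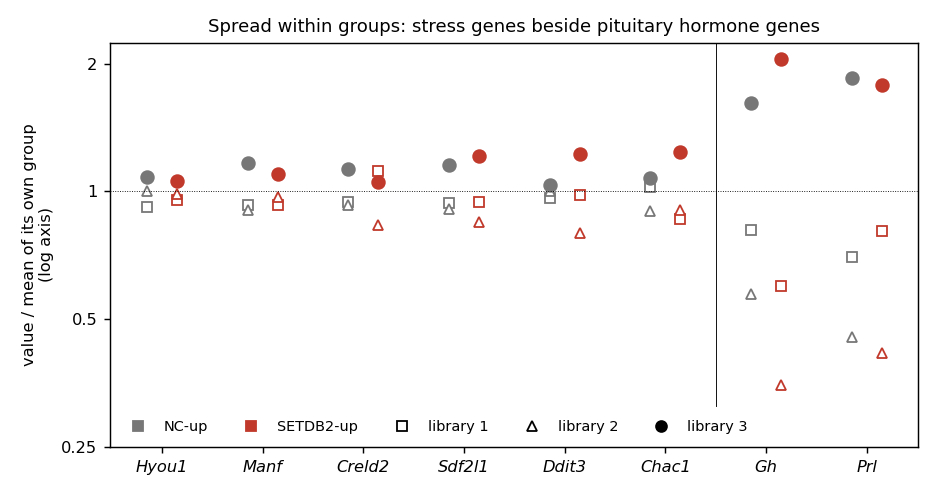
Normalised reads divided by the mean of the library's own group (log axis) for 6 stress genes and the pituitary hormone genes Gh and Prl. NC-up is in grey and SETDB2-up in red, with filled circles for library 3. The 6 stress genes were picked by hand and do not stand for all members. Library 3 is the highest in both groups for Hyou1, Manf, Sdf2l1, Ddit3, Chac1, Gh and Prl, while Creld2 is highest in library 1 in the SETDB2-up group.

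The plot of values relative to the group mean shows 6 stress genes beside Gh and Prl. The 6 were picked by hand and show the pattern more often than the members do, at 15 of 35 (42.9%). Of stress genes not drawn, Xbp1, Atf4 and Asns were highest in library 3 in both groups. Ern1, Trib3 and Ppp1r15a were not, and Atf6 was lowest in library 3 in both. Prl, the prolactin gene, had 135, 87.2 and 356 normalised reads in the NC-up and 98.8, 50.9 and 218 in the SETDB2-up libraries. The largest deviation of a member was that of Derl3, whose NC-up library 3 was 2.225 times the mean of libraries 1 and 2. In the SETDB2-up group the largest were Chac1 (1.40 times), Ddit3 (1.38 times), Sdf2l1 (1.355 times) and Trib3 (1.31 times). The median coefficient of variation of the members was 6.46% in the NC-up and 6.35% in the SETDB2-up libraries.

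GC content of the transcripts moved with the fold changes, among the members and across all genes. Pearson's r between GC content and log2 difference was -0.55 over the 35 members and -0.41 over 15513 genes, and r with log2 transcript length was 0.47 over the members; genes of the same 6 libraries share their depth, so these are descriptions. The 8 risen members had transcripts of 42.2% to 50% GC. The genes were also split at the median GC content of all genes, 50.3%. At or below it lay 17 members, of which 8 rose, and 7757 genes, of which 15.2% rose, with median log2 differences of 0.18 and 0.12. Above it lay 18 members, of which 0 rose, and 7756 genes, of which 0.851% rose, with medians of -0.03 and -0.11.

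When each library was corrected for GC content, 2 members rose and 1 fell, against 1.78% of the 15513 genes rising and 3.56% falling. The 2 were Pdia6 (log2 difference 0.39, adjusted p = 0.0022) and Calr (0.18, adjusted p = 0.0334), and the one that fell was Sec61b (-0.43, adjusted p = 0.0300). Canx, at 42.2% GC, went to 0.04 (adjusted p = 0.656), Pdia3 to 0.10 (0.242), Pdia4 to 0.19 (0.0711), Atf6 to 0.18 (0.141), Ero1b to 0.27 (0.247) and Uggt1 to 0.14 (0.164). The members' median was 0.07 after correction.

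**Figure D4:**
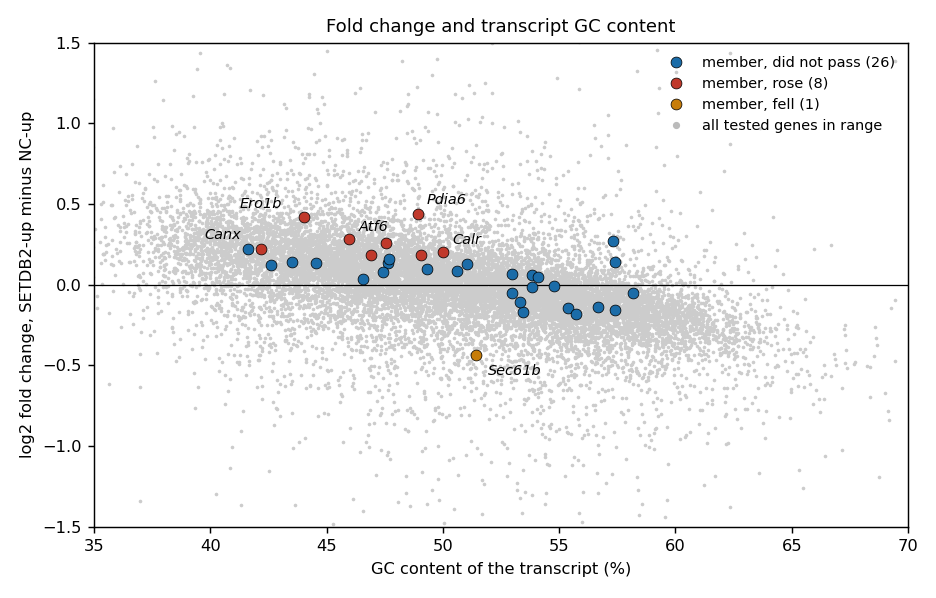
Transcript GC content (percent) against log2 fold change (SETDB2-up minus NC-up) for 15513 genes in grey, of which 90 lie outside the axes, and the 35 members in colour by call. The members follow the downward slope of all genes, and the 8 that rose lie between 42.2% and 50% GC.

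Members with an ER stress response element in the promoter gave 4 risen genes of 7, Pdia6, Ero1b, Calr and Canx, with a median log2 difference of 0.22; of all genes 7.71% rose, and after GC correction Pdia6 and Calr remained past the threshold. The element lay in the promoters of 14 further genes of the table, of which 4 rose (Hspa5, Hsp90b1, Dnajc3 and Hnrnpa3) and 0 fell, with a median of 0.15; after GC correction 1 of the 14 passed. Creld2, Derl3 and Syvn1, printed above with the 4 risen members, did not pass. Their transcripts have 54.8%, 57.3% and 57.4% GC, against 48.9%, 44.0%, 50% and 42.2% for Pdia6, Ero1b, Calr and Canx. Of all genes at or below the median GC content 15.2% rose, and of those above it 0.851%. The part of GC content in this division was not tested. Of the 23 promoters with neither this element nor element II, 3 belonged to risen genes, Pdia3, Pdia4 and Uggt1, and the median was 0.08. The 4 genes with the amino acid response core, Asns, Chac1, Herpud1 and Trib3, gave 0 risen, with a median of 0.10. A match is a description of letters and does not show that a factor was bound.

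Other ER genes were read from 6 lists written by function, 168 of whose 172 names were in the table. Of these, 18 rose (10.7%) and 13 fell (7.74%), shares near the 7.71% and 8.71% of all genes. Chaperones and folding enzymes gave 8 risen and 1 fallen of 39, and 1 risen and 0 fallen after GC correction. Hspa5, which encodes the master chaperone BiP, had 5303, 5948 and 6662 normalised reads against 7727, 6891 and 8135 (log2 difference 0.35, adjusted p = 0.0040). Hsp90b1, the ER form of HSP90, had 5286, 5792 and 5872 against 7384, 7178 and 7464 (0.38, adjusted p = 0.0002). The BiP cochaperone Dnajc3 (0.32) and the membrane thioredoxin Tmx4 (0.27) also rose, and the collagen prolyl isomerase Fkbp10 fell (-0.41). Fibroblast markers moved in the direction of Fkbp10, with a summed level of 24153 to 28869 normalised reads in the NC-up and 21120 to 24745 in the SETDB2-up libraries and 3 of 8 fallen; their part was not tested.

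Glycosylation and glycan trimming gave 4 risen (20%) and 1 fallen (5%) of 20, where 7.71% of all genes rose and 8.71% fell. After GC correction 0 rose and 0 fell. The oligosaccharyltransferase subunits Ostc (log2 difference 0.42), Stt3a (0.26) and Magt1 (0.25) rose with Gfpt1 (0.21), which makes the precursor of the sugar donor, and the trimming glucosidase Mogs fell (-0.37). Translocon and signal peptidase genes gave 2 risen (6.06%) and 4 fallen (12.1%) of 33. Sec61a2, an alternative channel subunit (0.25), and Bcap31, an ER export receptor (0.22), rose. The ER membrane complex subunits Emc10 (-0.24) and Emc4 (-0.21) and the signal recognition particle genes Srp54a (-0.57) and Srp19 (-0.34) fell. Srp54a has a near-identical copy, Srp54c, whose log2 difference was 0.31 (adjusted p = 0.0285), and the division of reads between the copies is uncertain.

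Remaining ERAD genes gave 2 risen and 2 fallen of 30 (6.67% each), where 7.71% of all genes rose and 8.71% fell. The risen were the deglycosylating enzyme Ngly1 (0.26) and the deubiquitinase Yod1 (0.50). The fallen were Fam8a1 (-0.40), a partner of Syvn1, and the ubiquitin-conjugating enzyme Ube2j2 (-0.26). Sensors and factors gave 1 risen and 1 fallen of 18 (5.56% each). The risen was Eif2s1 (0.30), the translation factor that PERK phosphorylates. The fallen was Creb3l1 (-0.55), a membrane-bound factor of collagen-secreting cells. ATF4 and CHOP targets gave 1 risen (3.57%) and 4 fallen (14.3%) of 28. Vldlr, a lipoprotein receptor, rose (0.41). The mTORC1 inhibitor Ddit4 fell from 3818, 3562 and 3782 normalised reads to 2144, 2075 and 2673 (-0.70), and Cebpb, a partner of CHOP, fell from 316, 378 and 376 to 155, 237 and 144 (-1.03). The pro-apoptotic Bbc3 (-0.43) and the amino acid transporter Slc7a5 (-0.25) fell as well. After GC correction 2 of these targets rose and 2 fell. Ddit4 (-0.54) and Cebpb (-0.58) still passed. Bbc3 went to -0.05 (adjusted p = 0.891, limma) and Slc7a5 to -0.12 (0.417). Of the sensors and factors, Creb3l1 went to -0.34 (0.131) and Eif2s1 to 0.10 (0.534).

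Of the 27 genes named from these lists, 9 passed whichever single library was left out: Hspa5, Hsp90b1, Ostc, Mogs, Srp54a, Fam8a1, Vldlr, Ddit4 and Cebpb. The other 18 did not pass without at least 1 library, with adjusted p-values of up to 0.219 (Sec61a2). The number risen and fallen in the 6 lists was 7 and 7 without NC-up library 2, 4 and 5 without SETDB2-up library 1, and 10 and 6 without SETDB2-up library 2. After GC correction 3 of the 168 rose and 6 fell, where 1.78% and 3.56% of all genes did. Those of the 9 still past the threshold included Hsp90b1, Vldlr, Srp54a, Ddit4 and Cebpb. Hspa5 went to 0.23 (adjusted p = 0.0751, limma) and did not pass, nor did Ostc and Mogs.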

How the data were processed

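The 6 libraries (3 NC-up, 3 SETDB2-up) were poly-A mRNA, prepared strand-specifically after TRIzol extraction and read as paired ends of 150 bp, per the labels' protocols. The submitters' processing notes name HISAT2, FastQC and GRCm38. Versions, read counter, strand setting, annotation, scaling method and low-count filter are not stated there. The deposited values are a signal, read counts scaled by the authors with 1 factor per library. Dividing by the smallest step gave whole reads for 100% of values (tolerance 0.001 read). Genes reaching a value of 1 in 3 or more libraries (28 were removed) were tested with limma 3.58.1 (R 4.3.3, mean-variance trend) on log2(value + 1), with Benjamini-Hochberg adjustment over all 16387 genes and a threshold of 0.05. Pairs of libraries within a group differed by a chi-square of 3.97 to 9.93 per degree of freedom, above sampling noise. Members had 11 to 10446 reads per library. The procedure was run on simulated data with independent counts and the same extra spread for every gene. These held no GC trend and no RNA of other tissues, so that run does not bear on either.

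GC content and length came from the longest protein-coding GENCODE transcript on GRCm38, matched for 15541 genes (94.7%) and all 35 members; levels per kilobase use merged exons. Alternatives were a pseudocount of 0.1, no filter or a minimum of 10, edgeR 4.0.16 (TMM or RLE factors) and DESeq2 1.42.0 on the recovered reads, GC correction, a replicate block, and leaving out libraries. All 35 members are named: those that passed and the 6 with the highest mean level with each library's value, the others by means or ranges, some with each value; of each other ER list, up to 4 per direction by smallest p. The members and all lists were chosen with earlier results of these data known.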

Additional observations from a re-analysis of the deposited data

How the results depend on the processing

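Over 17 alternatives, 847 of 1053 pairs of a gene and a setting kept their direction and side of the threshold, 166 lost the call, 2 gained it (Ero1a without SETDB2-up library 3, Asns under the replicate block) and 38 changed sign, none of those past the threshold. Other pseudocounts, filters, edgeR and DESeq2 left 7 or 8 members risen and 1 fallen. GC correction gave 2 members, 3 other ER genes and 276 of all genes risen, with 6 other ER genes and 552 of all genes fallen, and Setdb2 at 0.48. Leaving out 1 library gave 4 to 8 members risen, 4 to 19 other ER genes risen and 5 to 17 fallen, 417 to 1526 genes risen and 676 to 1807 fallen, and Setdb2 at 0.56 to 0.71. Without SETDB2-up libraries 1 and 2, 1 member rose and 0 fell (median 0.15), with 3 other ER genes risen and 4 fallen, 185 of all genes risen and 355 fallen, and Setdb2 at 0.65. Fewer libraries give less power by construction, but without SETDB2-up library 3 more genes were called, 1526 risen and 1807 fallen against 1263 and 1427. That library differed from SETDB2-up libraries 1 and 2 by a chi-square of 8.48 and 9.93 per degree of freedom. Between libraries 1 and 2 it was 3.97. The cause of the changes on leaving out libraries and under GC correction was not tested.

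Replicate numbers gave only a weak hint of pairing between the groups. The deviations of same-numbered libraries correlated at 0.038, 0.036 and 0.048, and those of the other pairs at -0.035 to -0.0056. Every library thus correlated best with its own number. With the replicate block 9 members rose and 1 fell, 22 other ER genes rose and 17 fell, and 1695 of all genes rose and 1923 fell. The replicate block with GC correction gave 3 members, 7 other ER genes and 717 of all genes risen, with Setdb2 at 0.48.

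Sign changes fell on uncalled genes, except Emc10. Under GC correction, with or without the replicate block, the log2 differences were 0.058 for P4hb, 0.082 for Creld2, -0.059 for Edem1, -0.011 for Edem3, -0.048 for Derl2, 0.12 for Trib3, -0.00043 for Ssr1 and 0.00102 for Emc10. Without SETDB2-up libraries 1 and 2 they were 0.049 for P4hb, 0.15 for Sdf2l1, 0.075 for Creld2, 0.11 for Edem2, 0.077 for Xbp1, 0.17 for Ddit3 and 0.21 for Trib3; without both libraries numbered 3, 0.037 for Creld2, -0.016 for Edem1 and -0.030 for Ern1. Leaving out 1 library, the ranges were -0.041 to 0.012 for P4hb, -0.29 to 0.029 for Pdia5, -0.094 to 0.12 for Creld2, -0.0070 to 0.15 for Selenos, -0.11 to 0.031 for Xbp1, -0.30 to 0.0092 for Ddit3, -0.18 to 0.063 for Trib3 and -0.021 to 0.24 for Chac1. Depth limits Derl3, with as few as 11 reads.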
